A study of Mus musculus with 4 samples.

Results

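The 10 cyclin genes described here are Ccnd1, Ccnd2 and Ccnd3 (D-type), Ccne1 and Ccne2 (E-type), Ccna1 and Ccna2 (A-type), and Ccnb1, Ccnb2 and Ccnb3 (B-type). They were taken by symbol from the 31017 gene symbols of the deposited tables, each symbol stood for 1 identifier, and each had UMIs in all 4 libraries. Cyclins are the regulatory subunits that switch on cyclin-dependent kinases (CDKs). D-type cyclins with CDK4 or CDK6 carry growth signals into the G1 phase, E-type cyclins with CDK2 act at the start of DNA synthesis, A-type cyclins act during and after it, and B-type cyclins with CDK1 drive entry into division. In the testis, spermatogonia divide by mitosis, pass a last DNA synthesis as preleptotene cells and then stay for days in meiotic prophase, in the order leptotene, zygotene and pachytene. Ccna1 and Ccnb3 are known as cyclins of meiotic germ cells, whereas Ccna2 and Ccnb1 are used by dividing cells in general.

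The series measured single-cell RNA in mouse testis with 1 library for each of 4 groups. Every mouse was of the C57BL/6 strain and carried an Acr-Gfp transgene, Gfp driven by the promoter of the germ cell gene Acr, so no group lacks it. For the 2-day and 7-day culture libraries, testes were removed at 7 days postpartum (dpp) and their fragments were kept in organ culture on agarose for 2 or 7 days. The 9 dpp and 14 dpp libraries came from testes that the sample titles name by age with no mention of culture, although the same culture text is attached to every sample. How many animals were pooled is not given in the sources used here. The library protocol attached to the samples names gonads of females, but the Sertoli and Leydig lists used here had UMIs in every library. With 1 library for each group, differences between groups have no replicate check, and intervals on single libraries cover counting error only. Tests between germ stages or cell classes use the 4 libraries as blocks, which removes the level of each library. Their p-values measure how evenly a stage or class difference repeats over libraries that themselves differ in age and culture.

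Values are counts of unique molecular identifiers (UMIs), 1 for each captured RNA molecule, from the 3′ end of transcripts, so that no scaling by gene length applies. They are given as CPM, which is UMIs scaled to a fixed total of the same cells (counts per 1000000). Where 4 values stand in a row they follow the order of 2 days of culture, 7 days of culture, 9 dpp and 14 dpp, and where 2 stand in a row for pachytene-like cells the cultured library comes first. Of 5149 to 7710 barcodes in a library, 4816 to 6877 cells were kept (23038 in all), with 3606 to 8544.5 UMIs in the median cell, and pairs of libraries shared 29 to 75 kept barcodes. Cells were placed in classes by their share of detected markers, which gave 10012 germ-like, 3155 Sertoli-like and 6461 stromal/myoid-like cells, and 2754 cells stayed without a class. The germ cell genes Dazl and Ddx4 were seen in 99.6% and 81.2% of germ-like cells, and the Sertoli cell genes Cldn11 and Sox9 in 99.0% and 84.8% of Sertoli-like cells. No cyclin is in any marker list.

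Germ-like cells were staged by the UMIs of fixed lists per 10000 UMIs of the cell. The pachytene-like stage needed at least 20 from Piwil1, Mybl1, Ldhc and 6 other genes. Of the rest, leptotene/zygotene-like cells had at least 60 from Dmc1, Meiob, Sycp1 and 4 others, here called the early prophase list. Next, Stra8-high cells had at least 20 from Stra8, Gm4969 (Meiosin) and Prdm9, undifferentiated-like spermatogonia at least 3 from Zbtb16, Gfra1, Id4 and 6 others, and differentiating-like spermatogonia at least 4 from Kit, Sohlh1 and 4 others. These limits were chosen after levels of the markers and of the cyclins had been seen. The stages held 1159 undifferentiated-like, 4716 differentiating-like, 1067 Stra8-high, 1752 leptotene/zygotene-like and 518 pachytene-like cells, and 800 had none. They are ranges on a continuum, and 321, 1648, 886, 813 and 112 of those cells, in the same order, lay within 1.5-fold of a limit. A stricter marker rule, used as an alternative, leaves such cells out. Pachytene-like cells came from the 7-day culture (313) and from 14 dpp (204), with 1 in the 2-day culture. At 9 dpp there were 0 of 2311 germ-like cells, which allows a share of up to 0.13%.

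The Stra8-high stage was a mixture. Of its 391, 147, 250 and 279 cells, 174, 36, 54 and 26 had fewer than 20 early prophase UMIs per 10000. In these cells Ccnd2 stood at 118 to 408 CPM and Ccnb1 at 203 to 536 CPM, against at most 6.84 and 107 CPM in the rest of the stage. Values of the whole Stra8-high stage are averages over both kinds of cell, and the levels along the early prophase list keep them apart.

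The B-type genes moved in opposite ways across meiotic entry, so the 250 bases before their start are shown as RefSeq gives them on GRCm38.p6, leaving out bases inside the gene as annotated by GENCODE M21. All 3 genes lie on the minus strand. Capitals mark CCAAT and TTTGAA, the letters of the CCAAT box and of the CHR element, which textbooks describe in promoters of genes used in mitosis. Both strands were searched.
Ccnb1 (chr13:100786571-100786736): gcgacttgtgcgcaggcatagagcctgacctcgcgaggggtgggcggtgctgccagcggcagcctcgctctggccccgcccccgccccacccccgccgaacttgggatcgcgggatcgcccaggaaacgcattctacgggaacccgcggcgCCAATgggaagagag
Ccnb2 (chr9:70421555-70421804): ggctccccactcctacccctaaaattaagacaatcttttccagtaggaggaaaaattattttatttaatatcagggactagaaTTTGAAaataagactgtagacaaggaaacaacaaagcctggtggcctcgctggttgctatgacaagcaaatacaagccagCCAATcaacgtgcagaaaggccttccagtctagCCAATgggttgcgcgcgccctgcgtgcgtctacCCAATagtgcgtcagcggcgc
Ccnb3 (chrX:7041620-7041869): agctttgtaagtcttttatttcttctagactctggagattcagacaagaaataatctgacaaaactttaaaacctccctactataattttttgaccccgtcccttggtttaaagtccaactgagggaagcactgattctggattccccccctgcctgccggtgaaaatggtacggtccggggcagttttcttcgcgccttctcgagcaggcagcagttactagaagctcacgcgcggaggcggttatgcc

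The full 250-base window of Ccnb1 held CCAAT 99 and 67 bases before the start, the second of these inside the GENCODE gene. The Ccnb2 window held CCAAT 87, 54 and 21 bases before the start and TTTGAA 167 bases before it. The Ccnb3 window held neither set of letters. Among 32851 RefSeq promoter windows of the same length, 33.9% had at least 1 CCAAT, 10.1% at least 2, 2.79% at least 3, and 16.0% had TTTGAA. These matches describe letters only. Of the 10 cyclins, 6 had a RefSeq window. Ccna1 had 1 CCAAT, on the other strand 107 bases before the start, Ccnd3 had 1 in the second of its 2 windows, and Ccne1 had none.

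Across the germ stages the mix of cyclin RNA turned over. D-type genes supplied 45.1%, 39.8%, 42.5% and 46.7% of the cyclin UMIs of undifferentiated-like cells. In leptotene/zygotene-like cells their share was 3.59% to 8.38%, and in pachytene-like cells it was 1.80% in both libraries. E-type genes went from 2.25% to 2.88% of cyclin UMIs in undifferentiated-like cells to 26.2% to 61.7% in leptotene/zygotene-like cells. B-type genes made up 80.9% and 71.6% of the cyclin UMIs of pachytene-like cells. The 10 genes together held 941 to 1292 CPM in undifferentiated-like cells and 546 and 649 CPM in pachytene-like cells.

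**Figure D1:**
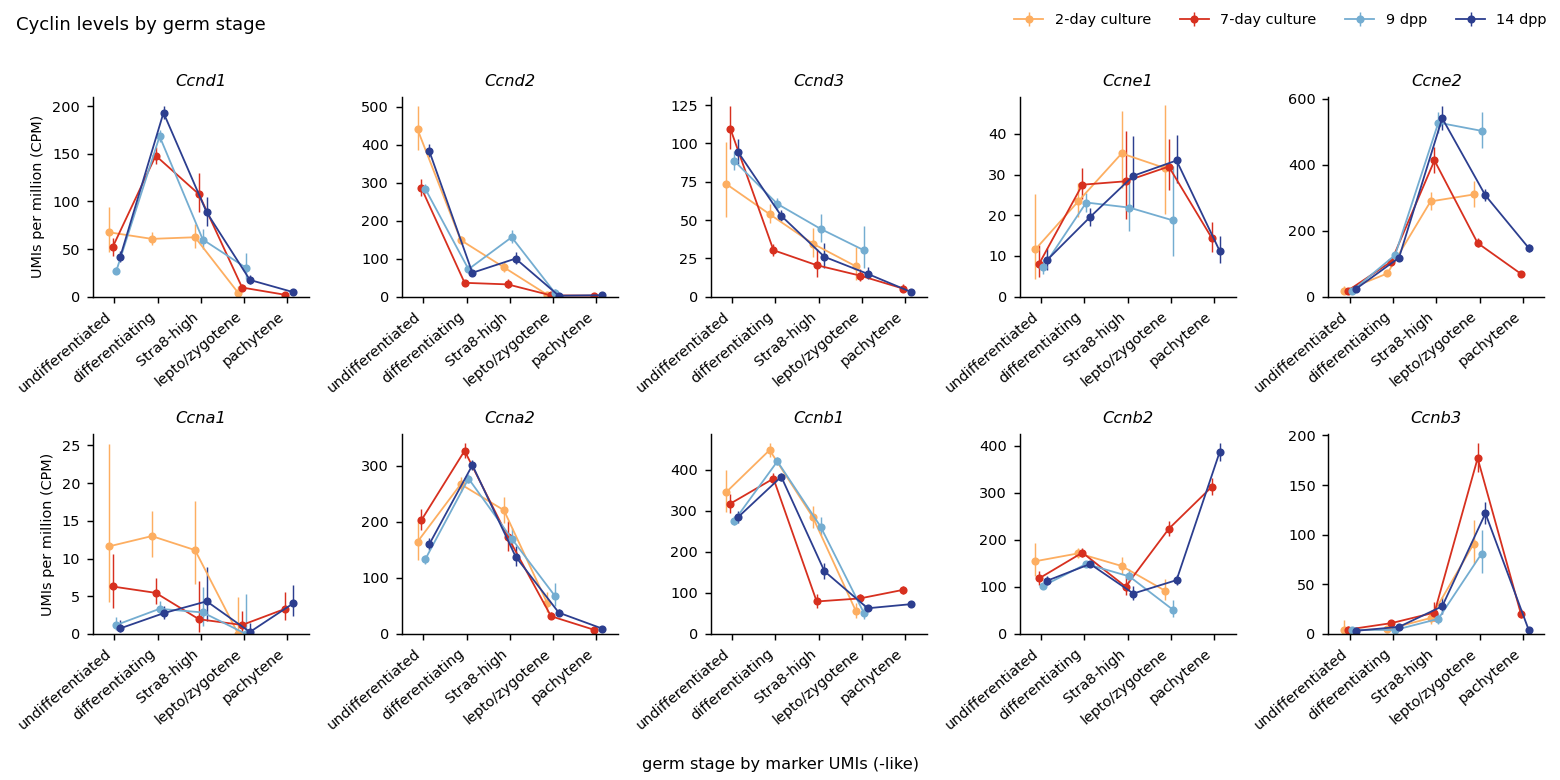
Level of each cyclin (vertical axis, CPM, linear from 0) in each germ stage (horizontal axis) for the 4 libraries (colours); points are the summed cells of a stage with at least 30 cells and bars are exact 95% Poisson intervals. Ccnd2 falls from 284 to 441 CPM in undifferentiated-like cells to 10.1 CPM or less in leptotene/zygotene-like cells, and Ccnb3 peaks in that stage at 80.8 to 177 CPM.

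Ccnd2 was the D-type cyclin of the undifferentiated-like cells. It stood at 441, 286, 284 and 384 CPM there, and at 149, 36.4, 72.3 and 62.9 CPM in differentiating-like cells. The lowest undifferentiated value lay above the highest differentiating one. The fitted log2 change was -2.26 (SE 0.30, edgeR adjusted p = 3.84e-05). Along the early prophase list, Ccnd2 went from 80.0 to 184 CPM below 10 UMIs per 10000 to 1.49 to 11.4 CPM between 20 and 40, in every library. It stayed at or under 16.3 CPM beyond that, and no bin past 20 overlapped a bin below it.

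Ccnd1 followed another course. It stood at 67.7, 51.7, 27.3 and 42.0 CPM in undifferentiated-like cells and at 60.7, 148, 168 and 193 CPM in differentiating-like cells. It was higher in the later stage in 3 libraries and not in the 2-day culture, where the 2 levels were close. The fitted log2 change was 1.78 (SE 0.35, edgeR adjusted p = 8.37e-04). Along the early prophase list its peak came at 10 to 20 UMIs per 10000 at 9 dpp (203 CPM) and at 20 to 40 in the others (101, 170 and 232 CPM). From 90 upward it was 2.97 to 5.98 CPM, so that Ccnd1 outlasted Ccnd2 along this list.

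Ccnd3 was lower at each later stage in every library. It stood at 73.5, 110, 88.7 and 94.5 CPM in undifferentiated-like cells, at 53.8, 30.3, 60.5 and 52.7 CPM in differentiating-like cells, and at 5.26 and 3.10 CPM in pachytene-like cells. The first of these steps had a log2 change of -0.94 (SE 0.19, edgeR adjusted p = 4.22e-04), and its levels did not overlap. Differentiating-like and Stra8-high levels did, at 30.3 to 60.5 and 20.5 to 44.3 CPM, and so did Stra8-high and leptotene/zygotene-like levels.

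Ccne2, whose protein acts with CDK2 at the start of DNA synthesis, rose up to the Stra8-high stage. It stood at 17.4, 18.4, 17.2 and 23.1 CPM in undifferentiated-like cells, at 70.3, 106, 126 and 118 CPM in differentiating-like cells and at 289, 413, 527 and 540 CPM in all Stra8-high cells. Each stage lay above the one before in all 4 libraries, with no overlap between stages. The log2 changes were 2.56 (SE 0.24, edgeR adjusted p = 2.41e-07) and 2.03 (SE 0.20, edgeR adjusted p = 1.55e-06). Under the stricter marker rule Ccne2 was the 1 cyclin still called into the Stra8-high stage (2.22, edgeR adjusted p = 0.00506). Along the early prophase list the peak came at 40 to 60 UMIs per 10000 in every library, at 466, 453, 781 and 556 CPM. From 90 upward it was 243, 119, 332 and 204 CPM, below the peak and above the spermatogonial levels of the same library. In the 7-day culture the interval of this level, 106 to 135 CPM, overlapped that of differentiating-like cells, 99.0 to 114 CPM. Pachytene-like cells had 69.3 and 148 CPM.

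Ccne1, the other E-type gene, was low throughout. It stood at 7.22 to 11.6 CPM in undifferentiated-like cells and at 19.6 to 27.5 CPM in differentiating-like cells, without overlap (log2 change 1.45, SE 0.20, edgeR adjusted p = 4.27e-06). From there to leptotene/zygotene-like cells it stayed between 18.8 and 35.2 CPM in every library, and in pachytene-like cells it was 14.3 and 11.2 CPM. That last step was called, with a log2 change of -0.99 (edgeR adjusted p = 0.00151).

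Ccna2, the A-type cyclin of DNA synthesis and mitosis, was highest in differentiating-like spermatogonia. It stood at 164, 203, 133 and 160 CPM in undifferentiated-like cells and at 267, 327, 277 and 301 CPM in differentiating-like cells, which did not overlap (log2 change 0.85, SE 0.17, edgeR adjusted p = 2.57e-04). Along the early prophase list it held 240 to 339 CPM up to 40 UMIs per 10000 and 111 to 173 CPM in the next bin. Pachytene-like cells had 7.41 and 9.77 CPM.

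Ccna1, the A-type cyclin known from meiotic cells, was scarce at these ages. Kept cells of all libraries held 379 Ccna1 UMIs and 22227 Ccna2 UMIs. In the germ stages before prophase it stood at 0.75 to 13.0 CPM, and the highest levels were those of the 2-day culture. In leptotene/zygotene-like cells it had 0, 4, 0 and 1 UMIs. The counts of 0, after 2 days of culture and at 9 dpp, allow up to 3.95 and 4.33 CPM. In pachytene-like cells it had 14 UMIs (3.35 CPM) and 17 UMIs (4.05 CPM), higher than the stage before in both libraries. The step was called (edgeR adjusted p = 0.00116), but its fitted size depends on so few UMIs that no fold is given.

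Ccnb1, the mitotic partner of CDK1, stood at 346, 318, 276 and 285 CPM in undifferentiated-like cells, and the step to differentiating-like cells was not called (log2 change 0.43, edgeR adjusted p = 0.201). It was called with no filter on low counts (0.50, edgeR adjusted p = 8.80e-04), with the stricter marker rule (0.86, edgeR adjusted p = 2.74e-06) and without the 7-day culture library (0.51, edgeR adjusted p = 0.00358). It stood at 448, 379, 421 and 383 CPM in differentiating-like cells, above undifferentiated-like cells in every library and without overlap, and at 55.3, 86.7, 52.0 and 62.7 CPM in leptotene/zygotene-like cells. Along the early prophase list it fell in each library from 376 to 460 CPM below 10 UMIs per 10000 to 92.9 to 129 CPM at 40 to 60. In the step to pachytene-like cells, at 108 and 72.7 CPM, it was not called (log2 change 0.79, SE 0.36, edgeR adjusted p = 0.0752).

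Ccnb2, a B-type cyclin that also serves mitosis, dipped in every library and regained its spermatogonial level in those with pachytene-like cells. It stood at 155, 118, 102 and 113 CPM in undifferentiated-like cells, with no call in the step to differentiating-like cells (log2 change 0.45, edgeR adjusted p = 0.206). With no filter on low counts (0.51, edgeR adjusted p = 0.00152) and with the stricter marker rule (0.76, edgeR adjusted p = 0.00163) that step was called, and the level was higher in 4 of 4 libraries. It stood at 172, 173, 149 and 149 CPM in differentiating-like cells, and along the early prophase list at 91.3, 100, 78.8 and 86.7 CPM at 40 to 60 UMIs per 10000. At 60 to 90 it was 61.6, 171, 35.4 and 82.2 CPM. From 90 upward it was 131, 249, 70.8 and 134 CPM, below the differentiating-like level in all but the 7-day culture. Pachytene-like cells had 313 and 387 CPM. These were its highest stage levels in both libraries, above all the spermatogonial ones (log2 change from the leptotene/zygotene-like stage 1.73, SE 0.33, edgeR adjusted p = 4.49e-04).

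Ccnb3 was highest in early prophase. It stood at 3.87, 4.50, 4.21 and 3.17 CPM in undifferentiated-like cells, and the step from there was not called (log2 change 0.67, edgeR adjusted p = 0.0948), although it was with no filter on low counts (edgeR adjusted p = 0.0192), after thinning (0.0151) and without 9 dpp (0.0422). It stood at 4.74, 10.9, 4.06 and 7.20 CPM in differentiating-like cells, at 16.1, 21.5, 15.2 and 27.9 CPM in Stra8-high cells and at 90.9, 177, 80.8 and 121 CPM in leptotene/zygotene-like cells. Within the Stra8-high stage Ccnb3 was 1.14 to 7.13 CPM below 20 early prophase UMIs per 10000 and 22.8 to 36.0 CPM above. Under the stricter marker rule the rise into the Stra8-high stage was not called (0.78, edgeR adjusted p = 0.944). The last 3 stages named did not overlap, and the log2 changes were 1.65 (SE 0.28, edgeR adjusted p = 1.99e-04) and 2.61 (SE 0.26, edgeR adjusted p = 5.56e-08). In pachytene-like cells it stood at 20.6 and 4.29 CPM (log2 change -3.38, SE 0.33, edgeR adjusted p = 1.68e-08).

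**Figure D2:**
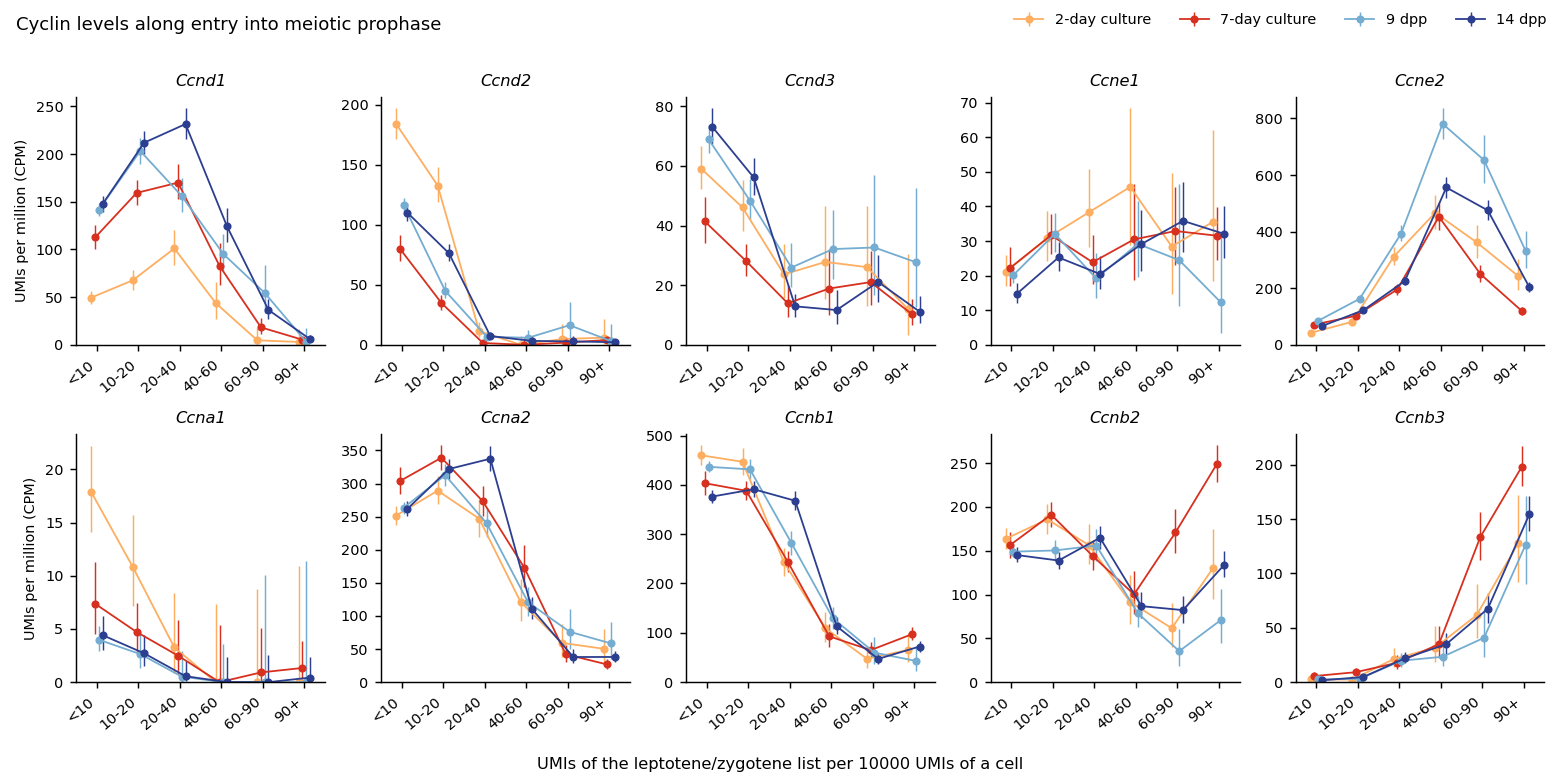
Level of each cyclin (vertical axis, CPM, linear from 0) in germ-like cells outside the undifferentiated-like and pachytene-like stages, grouped by their UMIs of the early prophase list per 10000 (horizontal axis), for the 4 libraries (colours) with exact 95% Poisson intervals. Ccnd2 is at or below 11.4 CPM in the bin of 20 to 40 in every library, Ccne2 peaks at 40 to 60, and Ccnb3 is highest in the last bin at 126 to 198 CPM.

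Read along this list, several changes fell in the same bin in all 4 libraries. Ccnd2 was at most 11.4 CPM in the bin of 20 to 40, where Ccna2 (240 to 337 CPM) and Ccnb1 (243 to 368 CPM) were still present. Ccne2 was highest at 40 to 60. Ccnb3 was highest from 90 upward, at 128, 198, 126 and 154 CPM, where Ccna2 stood at 26.7 to 58.5 CPM. The smallest bin, 90 or more at 9 dpp, held 55 cells. Since the bins use the same list, the order of the bins is an order of marker levels and not of time.

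In the edgeR quasi-likelihood fits over all genes, with Benjamini-Hochberg adjustment and a threshold of 0.05, 6 of 10 cyclins were called from undifferentiated-like to differentiating-like cells, 4 higher (Ccnd1, Ccne1, Ccne2, Ccna2) and 2 lower (Ccnd2, Ccnd3). Of all 13156 genes tested, 45.4% were called in that step, 22.6% higher and 22.8% lower. With no filter on low counts and with the stricter marker rule 9 of 10 cyclins were called, 7 higher and 2 lower. Without the 7-day culture library 8 were, 6 of them higher. In these alternatives, in the order named, 6778 of 22298, 6196 of 13580 and 6200 of 13854 genes were called. From differentiating-like to Stra8-high cells 5 of 10 were called, 2 higher (Ccne2, Ccnb3) and 3 lower (Ccnd3, Ccna2, Ccnb1), against 23.2% of all genes, 13.3% higher and 9.9% lower. From Stra8-high to leptotene/zygotene-like cells 7 of 10 were called, Ccnb3 higher and Ccnd1, Ccnd2, Ccnd3, Ccna1, Ccna2 and Ccnb1 lower, against 46.3%, 20.4% higher and 26.0% lower. From leptotene/zygotene-like to pachytene-like cells 8 of 10 were called, Ccna1 and Ccnb2 higher and Ccnd1, Ccnd3, Ccne1, Ccne2, Ccna2 and Ccnb3 lower, against 54.5%, 28.3% higher and 26.2% lower. The median log2 change of the cyclins was 0.71, -0.35, -1.02 and -1.13 in these 4 steps, and that of all genes tested lay between -0.09 and 0.02.

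Both steps around the Stra8-high stage depended on its mixture. With only the Stra8-high cells that had at least 20 early prophase UMIs per 10000, a choice made after the cyclin values were seen, the log2 change of Ccnd2 into the stage was -4.61 in place of 0.27. That of Ccnb1 was -2.82 in place of -1.09, and that of Ccna2 -1.44 in place of -0.77. Out of the stage, Ccnd2 was then at 0.72 in place of -4.26, Ccnb1 at 0.47 in place of -1.35, and Ccnb2 at 1.02 in place of 0.25. In these cells Ccne2 stood at 527, 528, 816 and 712 CPM and Ccnd2 at 0, 0, 6.84 and 2.51 CPM. In the Stra8-high cells below 20 the Ccne2 levels were 87.6, 107, 43.3 and 52.4 CPM and the Ccnd2 levels 142, 118, 408 and 379 CPM. Ccnd3 was no longer called out of the stage with DESeq2 (adjusted p = 0.104), with the stricter marker rule, or without the 2-day culture, 9 dpp or 14 dpp library. With all Stra8-high cells but without the 14 dpp library, 2 of 10 cyclins were called into the stage in place of 5. Of all genes, 1079 of 12586 were then called, in place of 3052 of 13156.

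Within prophase the 2 libraries with pachytene-like cells could be read more finely, by UMIs of the pachytene list per 10000 in the leptotene/zygotene-like and pachytene-like cells. In the bins under 5, 5 to 20, 20 to 60, 60 to 140 and 140 or more, Ccnb3 stood at 162, 188, 41.7, 1.98 and 0 CPM in the culture. At 14 dpp it stood at 111, 139, 13.5, 5.84 and 0.79 CPM in the same bins. In both libraries it was highest in the bin of 5 to 20, and in the bin of 60 to 140 only 3 and 5 UMIs were left.

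Ccnb1 reached its prophase peak 1 bin later, at 126 and 136 CPM in the bin of 20 to 60. In the last bin it was 54.8 and 43.6 CPM. Between the first and the last bin Ccnb2 went from 156 to 406 CPM in the culture and from 71.5 to 391 CPM at 14 dpp. Ccne2 fell from 238 and 378 CPM to 63.3 and 119 CPM in the bin of 60 to 140, and stood at 88.8 and 162 CPM in the last, a bin of 25 and 89 cells. Of the Ccna1 UMIs in these cells, 6 of 18 in the culture and 16 of 18 at 14 dpp lay in the last bin, at 8.88 and 6.34 CPM, with exact Poisson intervals of 3.26 to 19.3 and 3.62 to 10.3 CPM.

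**Figure D3:**
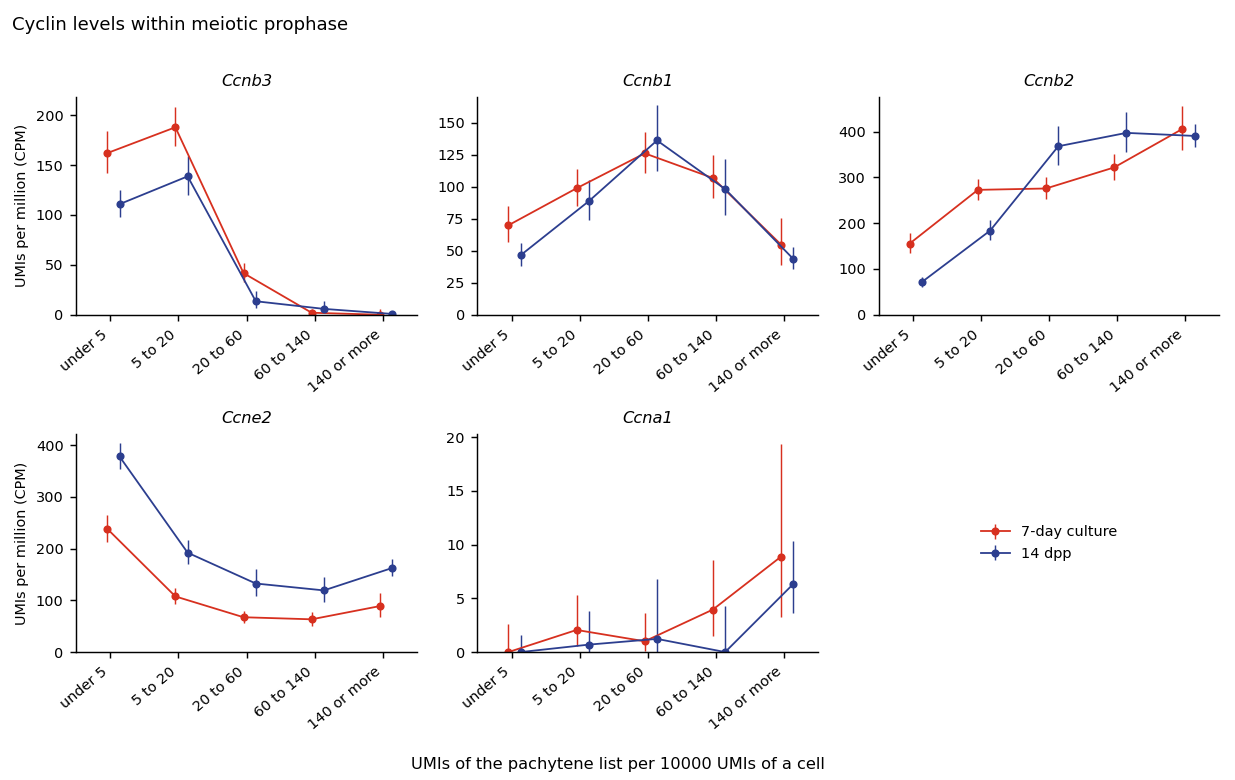
Level of 5 cyclins (vertical axis, CPM, linear from 0) in leptotene/zygotene-like and pachytene-like cells grouped by their UMIs of the pachytene list per 10000 (horizontal axis) for the 7-day culture and 14 dpp, with exact 95% Poisson intervals. In both libraries Ccnb3 is at or below 5.84 CPM from the bin of 60 to 140 onward, Ccnb1 peaks at 20 to 60 and Ccnb2 ends at 391 to 406 CPM.

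The step into pachytene-like cells rests on 2 libraries. Without the 14 dpp library a lone pachytene-like sum was left, which was then assumed to vary like the other stages. Ccna1, Ccnd1, Ccnd3 and Ccne1 kept their direction but were no longer called. Without the 7-day culture library Ccnd1 was not called and Ccnb1 was, at a log2 change of 0.72. Ccnb1 was also called with DESeq2 and with no filter on low counts, whereas Ccnd1 and Ccne2 lost the call under the stricter marker rule and Ccnd3 after thinning. Within the pachytene-like stage the libraries also differed in the level of their markers, and the summed pachytene list stood at 7861 and 14265 CPM.

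Between culture and the uncultured testis, most cyclin levels within a stage were less than 2-fold apart. In differentiating-like cells, 3 of 10 cyclins differed by at least 2-fold between the 2-day culture and 9 dpp, on the log2(CPM + 1) scale, against 4.1% of 11407 genes with enough UMIs. Ccnd1 was lower in the culture (60.7 against 168 CPM, log2 ratio -1.46). Ccnd2 was higher (149 against 72.3 CPM, 1.03), and so was Ccna1 (13.0 against 3.34 CPM, 1.69). The counting intervals of these ratios excluded 0, but with 1 library for each group they say nothing of the spread between cultures. With an added constant of 10 in place of 1, Ccnd2 and Ccna1 were under 2-fold, which left 1 of 10. In undifferentiated-like cells, 1 of 8 cyclins was at least 2-fold apart, Ccnd1 at 67.7 against 27.3 CPM, with 10.9% of all genes. In leptotene/zygotene-like cells 0 of 5 were (2.92% of all genes). In Stra8-high cells 1 of 9 was (2.74%), Ccnd2 at 77.2 against 157 CPM. That gap lay mainly in the cells below 20 early prophase UMIs per 10000, which had Ccnd2 at 142 against 408 CPM and were 174 of 391 and 54 of 250 cells. The other Stra8-high cells had 0 and 6.84 CPM. In the cells below 20 the summed list of undifferentiated markers moved with Ccnd2, at 43.2 against 126 CPM, and its part in the difference was not tested.

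The early prophase list was also used to match cells. Below 10 UMIs per 10000, Ccnd1 stood at 49.5 CPM after 2 days of culture and 142 CPM at 9 dpp, Ccnd2 at 184 and 116 CPM, and Ccna1 at 17.8 and 3.99 CPM. This bin holds germ-like cells outside the undifferentiated-like and pachytene-like stages, and so is not a part of the differentiating-like stage. Ccnd2 was closer in it than in that stage, Ccnd1 and Ccna1 were not, and Ccne2 stood at 42.2 and 85.0 CPM. The 7-day culture was closer to 14 dpp in that bin, with Ccnd1 at 113 and 148 CPM, Ccnd2 at 80.0 and 110 CPM and Ccna1 at 7.37 and 4.42 CPM. The summed Stra8 list in the differentiating-like cells moved with the group, at 1034, 801, 483 and 542 CPM, and its part in the cyclin differences was not tested. Between the cultures themselves 4 of 10 cyclins were at least 2-fold apart in differentiating-like cells, with 5.87% of all genes. After 7 days Ccnd1 (log2 ratio 1.27) and Ccnb3 (1.05) were higher, and Ccnd2 (-2.00) and Ccna1 (-1.12) were lower, than after 2 days.

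Between the 7-day culture and 14 dpp, 0 of 10 cyclins were at least 2-fold apart in differentiating-like cells, with 3.71% of all genes, and 0 of 8 in leptotene/zygotene-like cells, with 6.35%. Undifferentiated-like cells also had 0 of 8, with 1.72%, and Stra8-high cells had 1 of 9, with 3.02%. This was Ccnd2 at 32.3 against 100 CPM, and the gap lay mainly in the 36 of 147 and 26 of 279 cells below 20 early prophase UMIs per 10000, at 118 against 379 CPM, since the others had 0 and 2.51 CPM. The undifferentiated list stood at 64.2 against 143 CPM in those cells below 20, and its part was not tested. In pachytene-like cells, 2 of 6 were: Ccnb3 was higher in the culture (20.6 against 4.29 CPM, log2 ratio 2.03) and Ccne2 was lower (69.3 against 148 CPM, -1.08), with 9.46% of all genes. The pachytene list, at 7861 and 14265 CPM, moved with them, and its part was not tested. In the bin of 20 to 60 of the pachytene list Ccnb3 stood at 41.7 and 13.5 CPM in these libraries. At its peak along the early prophase list Ccne2 stood at 466 CPM after 2 days of culture and 781 CPM at 9 dpp, and at 453 CPM after 7 days and 556 CPM at 14 dpp. Between 14 and 9 dpp, 1 of 8 cyclins was at least 2-fold apart in leptotene/zygotene-like cells, Ccnb2 at 115 against 52.0 CPM, with 7.93% of all genes. In the same cells the pachytene list stood at 515 against 256 CPM and the Stra8 list at 1340 against 2157 CPM, and their part was not tested.

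Single cells were compared by the share with a UMI. In cells thinned to 2000 UMIs, Ccnd2 was seen in 56.4%, 39.7%, 37.3% and 39.1% of undifferentiated-like cells. In leptotene/zygotene-like cells these shares were 1.46%, 0.181%, 0.885% and 0.131%. Ccnb3 was seen in 17.1%, 28.5%, 13.3% and 21.2% of leptotene/zygotene-like cells. Of the Sertoli-like cells, which should lack it, 0 of 666, 1 of 497, 0 of 837 and 14 of 781 had a Ccnb3 UMI, and the counts of 0 allow shares of up to 0.45% and 0.358%. The Ccnb3 shares in prophase were above those of Sertoli-like cells in every library. Thinning left out 1 of 95 undifferentiated-like and 78 of 283 leptotene/zygotene-like cells of the 2-day culture, and 2 of 383 and 15 of 778 at 14 dpp. Without thinning, the shares at 14 dpp were 73.6% for Ccnd2 and 37.0% for Ccnb3, at median depths of 13845 and 4312 UMIs over all libraries.

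Pairs of cyclins in 1 cell were counted after the same thinning. A D-type UMI and a Ccnb3 UMI were found together in 0 of 381 undifferentiated-like cells at 14 dpp (a share of up to 0.787%), in 11 of 1531 differentiating-like cells and in 2 of 763 leptotene/zygotene-like cells. Ccna2 and Ccne2 were found together in 9.86% of differentiating-like cells and 8.03% of all Stra8-high cells at 14 dpp, and in 3.01% of leptotene/zygotene-like cells. At this depth a cell without a UMI may still hold the RNA.

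**Figure D4:**
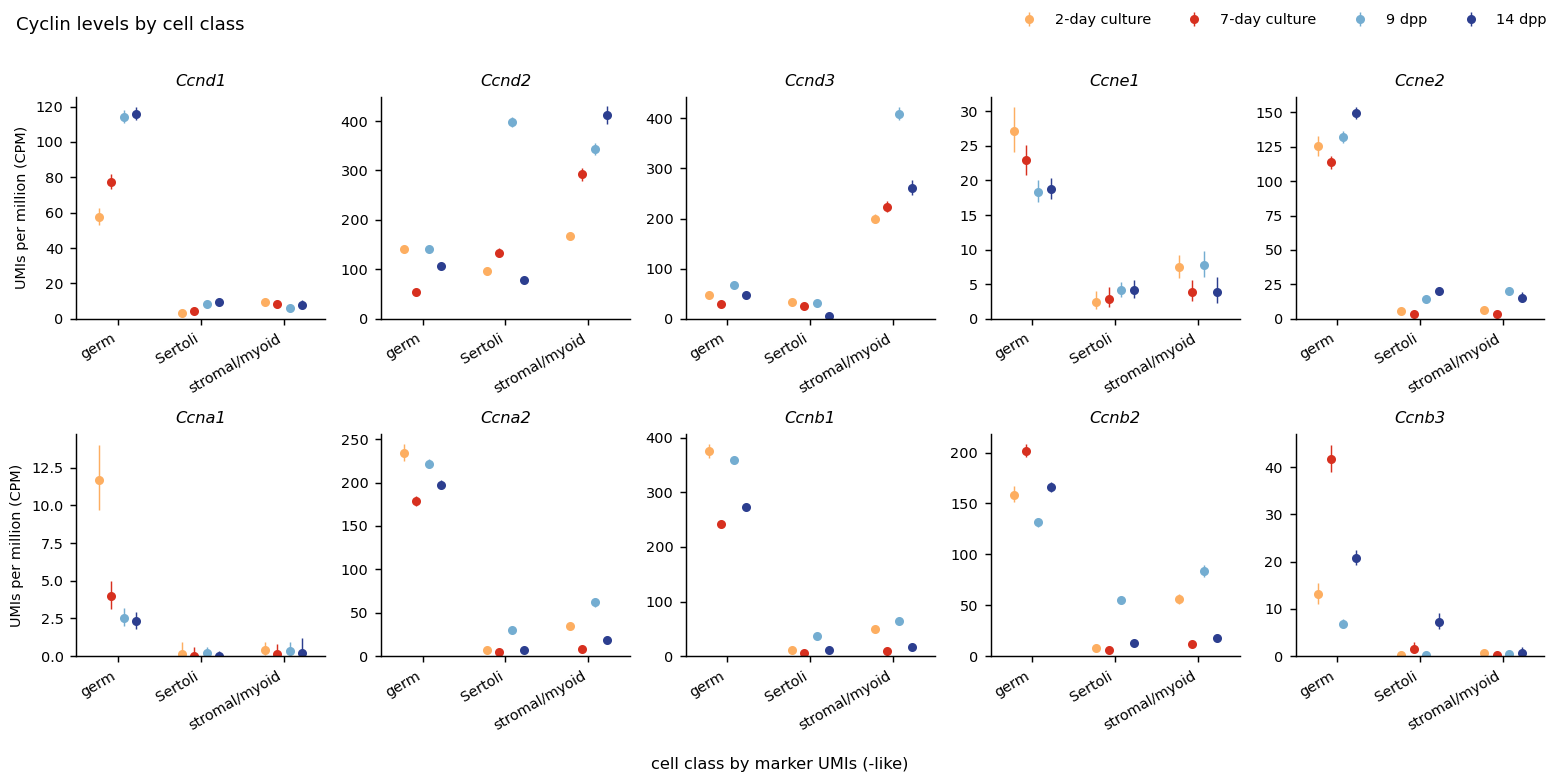
Level of each cyclin (vertical axis, CPM, linear from 0) in all germ-like, Sertoli-like and stromal/myoid-like cells (horizontal axis) of the 4 libraries (colours), with exact 95% Poisson intervals. Ccnd3 is highest in stromal/myoid-like cells in every library, at 200 to 409 CPM, and Ccnd2 in Sertoli-like cells is 398 CPM at 9 dpp against 79.3 to 133 CPM in the other libraries.

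In Sertoli-like and stromal/myoid-like cells, D-type genes made up most of the cyclin RNA. Their share of cyclin UMIs was 60.2% to 87.4% in Sertoli-like cells, which nurse the germ cells, and 70.7% to 93.5% in stromal/myoid-like cells, which hold connective and muscle-like cells around the tubules. Ccnd3 stood at 200, 224, 409 and 262 CPM in stromal/myoid-like cells and at 47.6, 30.2, 66.5 and 47.9 CPM in germ-like cells. Ccnd2 stood at 167, 292, 343 and 411 CPM in stromal/myoid-like cells and at 140, 53.5, 140 and 107 CPM in germ-like cells. Neither gene overlapped between these classes.

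Against stromal/myoid-like cells, 10 of 10 cyclins were called in germ-like cells, with 70.4% of 16378 genes (37.4% higher, 33.0% lower). Ccnd2 (log2 difference -1.75, SE 0.47, edgeR adjusted p = 0.00483) and Ccnd3 (-2.83, SE 0.41, edgeR adjusted p = 3.40e-05) were lower and the other 8 higher. Without the 7-day culture library the call of Ccnd2 ended, at an edgeR adjusted p of 0.073, and so did that of Ccnb2, at 0.0815. Without the 14 dpp library Ccnb2 stood at 0.0574. Against Sertoli-like cells, 8 of 10 were called higher in germ-like cells, with 66.7% of all genes called either way and 37.2% higher and 29.5% lower. Ccnd2 (-0.74, SE 0.46, edgeR adjusted p = 0.174) and Ccnd3 (0.81, SE 0.40, edgeR adjusted p = 0.0908) were not called. Ccnd3 was called higher without the 7-day culture library (1.20, edgeR adjusted p = 0.0485), with the stricter marker rule (1.10, 0.0279) and after thinning (0.95, 0.0369).

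Sertoli-like cells were lower than stromal/myoid-like cells in 3 of 10 cyclins, with 48.5% of all genes called, 23.6% higher and 24.9% lower. These were Ccnd3 (log2 difference -3.63, SE 0.43, edgeR adjusted p = 1.21e-05), Ccna2 (-1.50, SE 0.42, edgeR adjusted p = 0.00885) and Ccne1 (-0.86, SE 0.31, edgeR adjusted p = 0.0296). Without the library of 2 days of culture, Ccnd3 alone was called, with 7147 of 16088 genes. Ccne1 also lost its call without the 7-day culture and without 9 dpp. Without 9 dpp Ccnd2, Ccnb1 and Ccnb2 were called lower in Sertoli-like cells, which made 5, with 6282 of 15999 genes called.

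Cyclin levels of Sertoli-like cells differed widely between libraries. Ccnd2 stood at 95.8, 133, 398 and 79.3 CPM, so 9 dpp lay far above the rest. Ccna2 (6.84, 4.62, 30.5 and 7.48 CPM), Ccnb1 (11.4, 5.09, 37.4 and 10.4 CPM) and Ccnb2 (7.66, 5.89, 54.7 and 13.0 CPM) had the same high library. Between the 2-day culture and 9 dpp, 6 of 8 cyclins (Ccnd1, Ccnd2, Ccne2, Ccna2, Ccnb1, Ccnb2) were at least 2-fold lower in the culture, with 12.3% of all genes at least 2-fold apart and a median log2 ratio of -0.12 over all genes. Between 14 dpp and 9 dpp, 5 of 9 (Ccnd2, Ccnd3, Ccna2, Ccnb1, Ccnb2) were lower and Ccnb3 was higher, with 13.5% of all genes. Between 7 days of culture and 14 dpp, Ccnd3 was higher in the culture (26.3 against 5.75 CPM) and Ccne2, Ccnb2 and Ccnb3 were lower, 4 of 9 in all, with 17.0% of all genes. Sertoli-like cells with at most 1 UMI each of the germ and early prophase lists had Ccnd2 at 402 CPM and Ccnb2 at 58.4 CPM at 9 dpp. In such cells, 368 after 7 days of culture and 365 at 14 dpp, Ccnd3 stood at 26.4 against 6.36 CPM, whereas Ccne2 at 2.32 against 2.99 CPM, Ccnb2 at 2.91 against 2.24 CPM and Ccnb3 at 0.87 against 0.75 CPM were closer than in all Sertoli-like cells. After thinning, the log2 ratio of Ccnb2 between these libraries over all Sertoli-like cells was 0.0132 in place of -1.03.

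Some cyclin UMIs of the 14 dpp Sertoli-like cells moved with germ cell markers. Their early prophase list stood at 732 CPM, against 83.8 to 159 CPM in the other libraries. In the 365 of 835 cells with at most 1 UMI each of the germ and early prophase lists, Ccnb3 was 0.75 in place of 7.29 CPM, Ccne2 2.99 in place of 20.3 CPM and Ccnb2 2.24 in place of 13.0 CPM. Ccnd2 was 81.9 in place of 79.3 CPM. With the 14 dpp Sertoli-like sum left out, a setting added later, Ccnd2 was called lower in germ-like than in Sertoli-like cells (log2 difference -1.11, edgeR adjusted p = 0.0324).

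Stromal/myoid-like cells had their division cyclins highest at 9 dpp as well. Ccnb1 stood at 49.9, 9.09, 64.2 and 16.5 CPM, and Ccnb2 at 55.9, 11.4, 83.8 and 17.4 CPM. The younger library was higher in culture and in the testis. Between 14 dpp and 9 dpp, 3 of 8 cyclins (Ccna2, Ccnb1, Ccnb2) were at least 2-fold lower at 14 dpp, with 4.59% of all genes at least 2-fold apart. Between 2 days of culture and 9 dpp 3 of 8 (Ccnd2, Ccnd3, Ccne2) were at least 2-fold lower in the culture, with 12.6% of all genes and a median log2 ratio of -0.17. Less that median, Ccnd2 and Ccnd3 were at -0.86 each. Between 7 days of culture and 14 dpp 2 of 7 were, both lower in the culture, Ccne2 at 3.46 against 15.2 CPM and Ccna2 at 8.51 against 18.9 CPM, with 8.19% of all genes.

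The rarer classes held few cells. Leydig-like cells, which make testosterone, had Ccnd3 at 137, 113, 379 and 207 CPM in 54, 43, 83 and 115 cells. Pericyte-like cells had Ccnd2 at 659 CPM at 9 dpp (36 cells) and 773 CPM at 14 dpp (39 cells), the highest Ccnd2 values of any class or germ stage summed here, and Ccnb1 at 188 and 252 CPM. At 14 dpp these cells had 8976 CPM of the stromal/myoid list and 5684 CPM of their own list. Their early prophase list stood at 9.42 CPM at 9 dpp and 450 CPM at 14 dpp, and the part of these markers was not tested. The 45 macrophage-like cells at 14 dpp had Ccnd2 at 12.4 CPM and Ccnd3 at 164 CPM, and D-type genes supplied 82 of their 223 cyclin UMIs (36.8%).

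Other genes of the cell cycle were taken from a list of 53, of which 52 were tested between germ stages. In the 4 steps 32, 21, 34 and 33 of them were called, with 25, 10, 14 and 15 higher and 7, 11, 20 and 18 lower. Of all genes tested, 45.4%, 23.2%, 46.3% and 54.5% were called in these steps, so that the last count, 63.5% of the list, lay near the share of all genes. From undifferentiated-like to differentiating-like cells, Meioc, needed to leave the mitotic program (log2 change 3.69), the CDK inhibitor Cdkn2c (2.66) and E2f2 (2.64) rose. The CDK inhibitors Cdkn1b (-3.15) and Cdkn1c (-1.27) and the D-type partner Cdk4 (-1.02) fell. E2f6 (-0.99) fell too, and Ccno rose (1.71).

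Into the Stra8-high stage, Spdya, a CDK2 activator of meiotic telomeres, rose by 3.14 on the log2 scale, and Meioc (1.70), Cntd1 (1.51) and Cdkn2c (1.37) rose with it. Ccnj (-1.58), E2f8 (-1.16), Cks1b (-1.09) and the CDK phosphatase Cdc25c (-1.0) fell. Out of it, Fbxo43, which restrains the machinery that destroys B-type cyclins (3.24), Cntd1 (2.10), Spdya (1.96) and Ccng2 (1.29) rose. Cdk6, a partner of the D-type cyclins (-2.80), E2f7 (-2.72), Ccno (-2.61) and E2f6 (-2.22) fell. These steps include the mixed cells of the stage. Under the stricter marker rule 8 of the 8 genes named into the stage kept their direction and lost the call, and 6 of the 8 named out of it did, all but Spdya and Cdk6. Without 9 dpp, Ccnj and E2f8 were not called into the stage, nor was E2f8 without 14 dpp, and after thinning Ccno was not called out of it.

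Into the pachytene-like stage, Pkmyt1, a kinase that holds CDK1 inactive, rose by 3.84 on the log2 scale. The crossover gene Cntd1 (2.43), the CDK partner Cks2 (2.04) and Fbxo43 (1.99) rose too. Fbxo5, the mitotic counterpart of Fbxo43, fell (-4.96), as did E2f1 (-3.36), the CDK inhibitor Cdkn2a (-3.16) and the CDK phosphatase Cdc25b (-2.67). Without the 14 dpp library Cks2, Fbxo43 and Cdc25b were not called, and Cdc25b was also lost under the stricter marker rule. In the 4 steps the edgeR adjusted p of these genes was at most 0.0383. Between Sertoli-like and germ-like cells 39 of 53 were called, 34 higher and 5 lower in germ-like cells. That is 73.6% of the list, near the 66.7% of all genes called either way. All genes split into 37.2% higher and 29.5% lower, so the list leaned more to higher levels in germ-like cells than all genes did. Ccnf (4.03), Cdkn2a (3.92), Cdc25c (3.91) and Ccnb1ip1 (3.80) led the first group, and Rbl2 (-4.30), Cdkn1b (-3.25), Cdkn2b (-1.46) and Ccnl1 (-1.22) the second. The call of Cdkn2b ended under 7 alternatives, DESeq2 among them (adjusted p = 0.0709).

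The genes with the profile most like each cyclin were found by Pearson's r of log2(CPM + 1) over 34 sums of a library and a stage or class, which share libraries. For Ccna2 these were Cenpa (r = 0.957), Rfc5 and Ska3, for Ccnb1 Ckap2 (0.955), Bub1b and Incenp, and for Ccnb2 Cdc20 (0.955), Prc1 and Aurka. For Ccnb3 they were Fbxo47 (0.949), Zfy1 and Gm6268, and for Ccne2 Taf12 (0.929), Uchl3 and Sec23b. For Ccnd1 they were Smagp (0.891), Rftn1 and Fnip2, for Ccnd2 Kazn (0.934), Sox4 and Prpsap1, and for Ccnd3 Zfp36l1 (0.916), Eva1b and Tmem109. For Ccne1 they were Lrr1 (0.914), Top2a and Cenpk, and for Ccna1 Anp32b (0.878), Rpia and Gm40988. These values describe the sums and carry no test.

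Each cyclin gene is protein-coding and its position in GENCODE M21 on GRCm38 was found by identifier. Ccnd2 lies at chr6:127125162-127152193, Ccne2 at chr4:11191351-11204779, Ccna2 at chr3:36564865-36572150 and Ccnb3 at chrX:6979652-7041619. Ccnd1, Ccnd2, Ccnd3, Ccne2, Ccna1 and Ccna2 each overlap a gene on the other strand. The largest counts of such partners were those of Exosc9 (10489 UMIs, beside Ccna2), Ints8 (8731, beside Ccne2), Bysl (6199, beside Ccnd3) and LTO1 (4759, beside Ccnd1). Whether the counting used strand is not given in the sources used here, so reads of such a pair may not be fully separated.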

How the data were processed

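Cells of 4 testis libraries were counted with 10x Genomics 3′ chemistry. The deposited counts are whole UMIs per gene and cell in 10x matrices, made with Cell Ranger 3.0.2 on mm10 per the submitters' processing notes; its annotation and use of strand are not given in the sources used here. From the counts, barcodes needed 500 detected genes and no more than 20% of UMIs from mitochondrial genes and Scrublet calls (expected 6%) were removed with scanpy 1.11.5. A class needed at least 2 markers and a lead of 0.2 in the share of its list detected. Counts were summed per library and stage or class with at least 30 cells and tested with edgeR 4.0.16 (quasi-likelihood, TMM, filterByExpr, library as a term, Benjamini-Hochberg over all genes, 0.05), after the fit had been tested on simulated data. Ratios between libraries use CPM plus 1, genes with at least 50 UMIs in both sums together, and no test. Shares use cells thinned to 2000 UMIs, with exact 95% binomial intervals, and a count of 0 is bounded by 3 counts.

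The members and the lists were chosen with earlier results of these data known, and the stage limits after marker and cyclin levels had been seen. All 10 cyclins were examined in each comparison; between libraries, cyclins at least 2-fold apart are named only for the pairs and cells given, which were chosen after their values were seen. The stricter marker rule asks for a lead of 0.4 and leaves out cells within 1.5-fold of a stage limit. Of the other cell cycle genes, up to 4 higher and 4 lower with the largest log2 change among those called are named in each stage step and between Sertoli-like and germ-like cells. Of the genes most like a cyclin, the 3 with the highest r are named, among genes with at least 200 UMIs that are neither cyclins of the list nor markers. Alternatives were DESeq2 1.42.0, no filter on low counts, doublet calls kept, stricter cell and marker rules, thinning, other added constants and leaving out each library. Total UMIs per library were 34491701, 38632065, 60829941 and 58369264, and precision differs accordingly.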

Additional observations from a re-analysis of the deposited data

Results flagged for a closer look

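For 2 cyclin contrasts the cultured and the uncultured libraries moved in opposite directions, on the log2(CPM + 1) scale; the difference itself was not tested. From differentiating-like to Stra8-high cells, Ccnd2 changed by -0.94 and -0.17 after 2 and 7 days of culture and by 1.10 and 0.67 at 9 and 14 dpp. After 7 days of culture the levels were 36.4 and 32.3 CPM, with overlapping counting intervals of 32.2 to 41.0 and 22.2 to 45.3 CPM. In Stra8-high cells with at least 20 early prophase UMIs per 10000, Ccnd2 was at most 6.84 CPM in all 4 libraries. In the Stra8-high cells below 20, Ccnd2 stood at 142, 118, 408 and 379 CPM and the summed undifferentiated list at 43.2, 64.2, 126 and 143 CPM, and the part of that list was not tested. From stromal/myoid-like to Sertoli-like cells, Ccnd1 differed by -1.24 and -0.76 in the cultures and by 0.41 and 0.27 at 9 and 14 dpp, at levels of 3.42 to 9.49 CPM. The 14 dpp Sertoli-like cells also held 732 CPM of the early prophase list, whose part was not tested. No group had enough libraries to look for a library far from the others.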

How the results depend on the processing

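Of 766 cyclin tests under alternatives, 685 kept direction and side of the threshold, 41 lost the call, 37 gained it and 3 reversed; of 433 tests of the other named cell cycle genes, 29 lost the call and 0 reversed. With only Stra8-high cells that had prophase UMIs, added later, the reversed values were Ccnd2 at -4.61 into the stage and Ccnd2 at 0.72 and Ccnb1 at 0.47 out of it, and 6199 genes and 9 cyclins were called into the stage, in place of 3052 and 5. The stricter marker rule, which drops cells near a limit, called 12 genes and 1 cyclin into it and 761 genes and 3 cyclins out of it (6097 and 7 with all cells). Thinning to 2000 UMIs called 3569 genes in the first step (5978 before), 3643 out of the Stra8-high stage and 4155 into the pachytene-like stage (7171 before). Leaving out each library in turn gave 3744 to 6200 genes in the first step, 1079 to 3316 genes and 2 to 5 cyclins into the Stra8-high stage, 4490 to 7031 genes and 4 to 8 cyclins into the pachytene-like stage, and 1 to 5 cyclins between stromal/myoid-like and Sertoli-like cells; all the lowest values but the last came without 14 dpp. DESeq2 called 6 cyclins and 7879 of 16378 genes in that last contrast, and thinning 1 and 6138 of 13757, in place of 3 and 7937 of 16378. Of 1792 ratios between libraries, 206 moved beyond their counting interval and 1 reversed (Ccnb2, Sertoli-like, 7-day culture over 14 dpp, 0.0132 after thinning). With an added constant of 10, cyclin levels at least 2-fold apart numbered 7 in place of 16 for 2-day culture over 9 dpp. For 7-day culture over 14 dpp they numbered 5 in place of 10, and 17 with the stricter marker rule. A larger constant shrinks the ratios of low levels for any gene. No share of all genes stands beside these counts, so they do not set the cyclins apart from other genes. At 14 dpp the share with a Ccnd2 UMI in undifferentiated-like cells was 73.6% unthinned, 25.1% at 1000 and 58.8% at 4000 UMIs, and that of Ccnb3 in leptotene/zygotene-like cells 37.0%, 11.5% and 34.3%. Except where an alternative tests fewer cells or UMIs by construction, the cause was not tested. Counting error is wide for Ccna1, with 379 UMIs in all kept cells. No paired analysis was possible because, between the culture and age groups, each group has 1 library; tests between stages and classes compare sums within libraries, with library as a term.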
